A study of Homo sapiens with 6 samples.

Results

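The genomic regions listed as contacting the TBXT promoter were compared between H358 and A549, both lung cancer cell lines that the series describes as not expressing TBXT. Each line has 1 list of regions, and all rows of both lists were used, with no sample left out. A region was counted as being in both lists when its start and its end were identical in the 2 lists, and otherwise as H358 only or A549 only. The lists were assigned to the lines by their labels, although the text of the study gives the sizes of these lists the other way round, and every statement on H358 only or A549 only rests on the labels. The H358 list held 729 regions and the A549 list 759, so that 1033 different regions were in at least 1 of these lists, of 1201 in the whole series. Of these 1033 regions, 455 were in both lists, 274 were H358 only and 304 were A549 only. The regions are called potential cis-regulatory elements (pCREs), a name that does not imply a measured regulatory activity. The methods of the study use this name for fragments merged within 40 bp, whereas the lists hold unmerged fragments, and here each row of a list is 1 pCRE.

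The measurement was 4C-seq, in which crosslinked chromatin is cut and religated, and the fragments joined to 1 chosen site (the viewpoint) are sequenced. There were 2 replicate libraries per line, and the authors deposited 1 pooled list for each line. H358 cells are labelled as a bronchioalveolar carcinoma and were grown in RPMI 1640, whereas A549 cells are labelled as a lung carcinoma and were grown in DMEM, so that line and medium cannot be told apart. Both are established, untreated and unmodified lines, with fetal bovine serum and antibiotics in the medium, and the copy number of the locus was not measured. The lists hold positions, with no count or score, which leaves the depth of each library unknown and the spread between replicates unseen. Differences between the lines are therefore given as a description, with no test. The 95% Wilson intervals below cover counting error over pCREs, which were smoothed together with their neighbours by the authors and are not independent.

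TBXT encodes Brachyury, a T-box transcription factor that specifies mesoderm and notochord in the embryo, is silent in most adult tissues and is made again in some tumours. Enhancers can act on a promoter over long distances when chromatin folding brings both together, but a contact can also exist at a silent promoter. A list of contacts shows which fragments lay near the promoter often enough to be called, not which of them act on it.

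The viewpoint was the NlaIII site (CATG) at chr6:166169210-166169213 of hg38. It lay inside the long non-coding RNA gene LNCDAT, 510 bp beyond the outermost annotated end of TBXT and 1359 bp upstream of the start of the canonical TBXT transcript. The forward inverse primer matched chr6:166169196-166169213 on the plus strand and ended on this site, which is shown in capitals:
forward inverse primer: ggctttcccgcggaCATG

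Each pCRE turned out to be 1 cell of the NlaIII map of hg38, that is, the stretch around an NlaIII site that reaches halfway to the next site in each direction, where sites up to 5 bp apart share a cell. All 1033 pCREs matched such a cell exactly. The sequences that follow are the middle pCRE of the longest run of pCREs in both lists, of a run in H358 only and of the longest run in A549 only, and then the farthest A549 pCRE on the PDE10A side. They show what a single member is, from a cell of 36 bp to one of 281 bp. All are on the plus strand of hg38, with CATG in capitals.
both lists, MPC1 intron 1, chr6:166379504-166379784: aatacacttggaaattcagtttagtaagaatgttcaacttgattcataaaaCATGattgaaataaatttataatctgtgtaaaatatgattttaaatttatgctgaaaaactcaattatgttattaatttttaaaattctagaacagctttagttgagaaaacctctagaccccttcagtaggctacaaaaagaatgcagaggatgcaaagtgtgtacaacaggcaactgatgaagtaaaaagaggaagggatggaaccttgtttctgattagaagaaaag
H358 only, between PRR18 and SFT2D1, chr6:166311640-166311731: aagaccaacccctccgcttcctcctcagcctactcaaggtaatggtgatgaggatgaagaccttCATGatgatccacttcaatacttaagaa
A549 only, PDE10A, chr6:165817634-165817806: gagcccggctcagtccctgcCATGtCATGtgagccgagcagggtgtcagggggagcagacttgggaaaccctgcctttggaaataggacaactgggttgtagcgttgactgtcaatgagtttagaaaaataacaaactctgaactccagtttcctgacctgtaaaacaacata
A549 only, farthest on the PDE10A side, chr6:165715611-165715646: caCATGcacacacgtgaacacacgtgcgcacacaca

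The pCREs in both lists were 44.0% (41.0 to 47.1) of those in either list, 62.4% (58.8 to 65.9) of the H358 list and 59.9% (56.4 to 63.4) of the A549 list. No pCRE of one line overlapped a pCRE of the other in part: each was either identical or separate. The 455 pCREs in both lists covered 104943 bp, against 62851 bp for H358 only and 71925 bp for A549 only. As background, the window of 1 Mb on either side of the viewpoint held 9783 NlaIII cells, of which 7.45% were in the H358 list and 7.76% in the A549 list. Of all these cells, 4.65% were in both lists, 2.80% in the H358 list only, 3.11% in the A549 list only and 10.6% in either list.

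The pCREs found in 1 line lay mostly on opposite sides of TBXT. Of the H358-only pCREs, 214 of 274 (78.1%, 72.8 to 82.6) were on the side of RPS6KA2, at higher coordinates than the viewpoint. Of the A549-only pCREs, 92 of 304 (30.3%, 25.4 to 35.6) were on that side and 212 on the side of PDE10A, at lower coordinates. The pCREs in both lists had 333 of 455 (73.2%) on the RPS6KA2 side. The whole lists had 75.0% in H358 and 56.0% in A549. For comparison, bins of 50 kb held 198 to 292 NlaIII cells on the PDE10A side and 220 to 290 on the RPS6KA2 side. The H358 list ran from -287 kb to 633 kb and the A549 list from -454 kb to 330.3 kb, where negative distances point towards PDE10A. Each line thus reached farther than the other on 1 side.

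**Figure D1:**
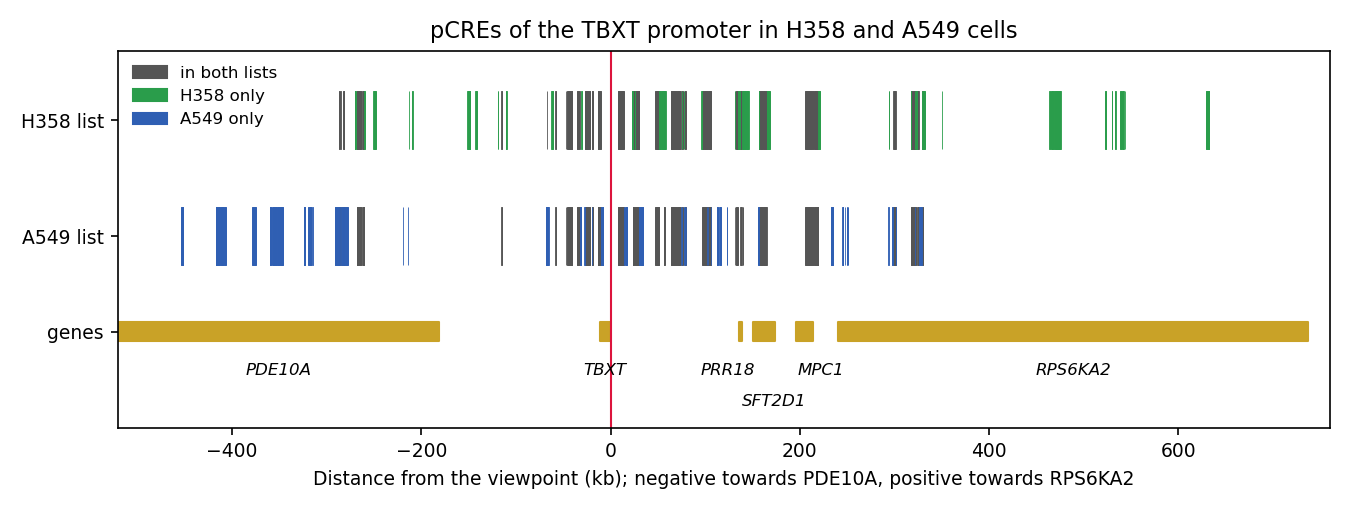
Positions of all pCREs of H358 (upper track) and A549 (lower track) against the distance from the viewpoint in kb (red line), with the protein-coding genes that hold pCREs as bars (PDE10A continues beyond the left edge). Marks have a minimum width, so that neighbouring pCREs of different classes can cover each other. Grey pCREs are in both lists, green ones are H358 only and blue ones are A549 only. The H358 list extends to 633 kb on the right and the A549 list to -454 kb on the left.

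The pCREs in both lists were the nearest, with a median distance of 97.4 kb (interquartile range 30.1 to 211 kb). The medians were 209.5 kb (136 to 467 kb) for H358 only and 289 kb (115 to 356 kb) for A549 only. The study's near-cis distance, up to 0.2 Mb, held 318 of the 455 pCREs in both lists, 136 of the 274 in H358 only and 86 of the 304 in A549 only. Beyond 0.5 Mb (far-cis) there were 40 pCREs, all of them H358 only.

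The opposite sides rested on the ends of the 2 lists. Beyond the common range of -287 kb to 330.3 kb lay 88 H358-only pCREs (32.1%), all on the RPS6KA2 side, and 148 A549-only pCREs (48.7%), all on the PDE10A side. Within that range, 126 of 186 H358-only pCREs (67.7%) and 92 of 156 A549-only pCREs (59.0%) were on the RPS6KA2 side, so that the A549-only pCREs no longer lay mostly towards PDE10A. The median distances there were 143 kb for H358 only and 116 kb for A549 only. Of the 797 pCREs within the range, 455 (57.1%, 53.6 to 60.5) were in both lists. The range held 3022 NlaIII cells, of which 21.2% were listed in H358 and 20.2% in A549.

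In bins of 50 kb, 21 of the 40 bins of the window held a pCRE of either line. Both lines had pCREs in 12 bins, H358 alone in 5 and A549 alone in 4. The lists had most in common next to the promoter. From -50 to 0 kb, 75 pCREs were in both lists, with 2 in H358 only and 18 in A549 only (78.9% of those in either list), and from 0 to 50 kb there were 82, 9 and 25 (70.7%). From 50 to 100 kb, 75 were in both, 35 in H358 only and 6 in A549 only.

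Farther out, the bin from 200 to 250 kb again had most pCREs in common, with 61 in both lists, 9 in H358 only and 21 in A549 only. The bin from -300 to -250 kb, inside PDE10A, had 42, 11 and 45. Between -250 and -100 kb the order of the lines was the other way round, with 13, 6 and 17 H358-only pCREs in the 3 bins and 2, 0 and 0 A549-only pCREs. A549 alone had pCREs in the 4 bins from -500 to -300 kb (12, 37, 47 and 35). H358 alone had 39 from 450 to 500 kb, 22 from 500 to 550 kb and 18 from 600 to 650 kb.

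**Figure D2:**
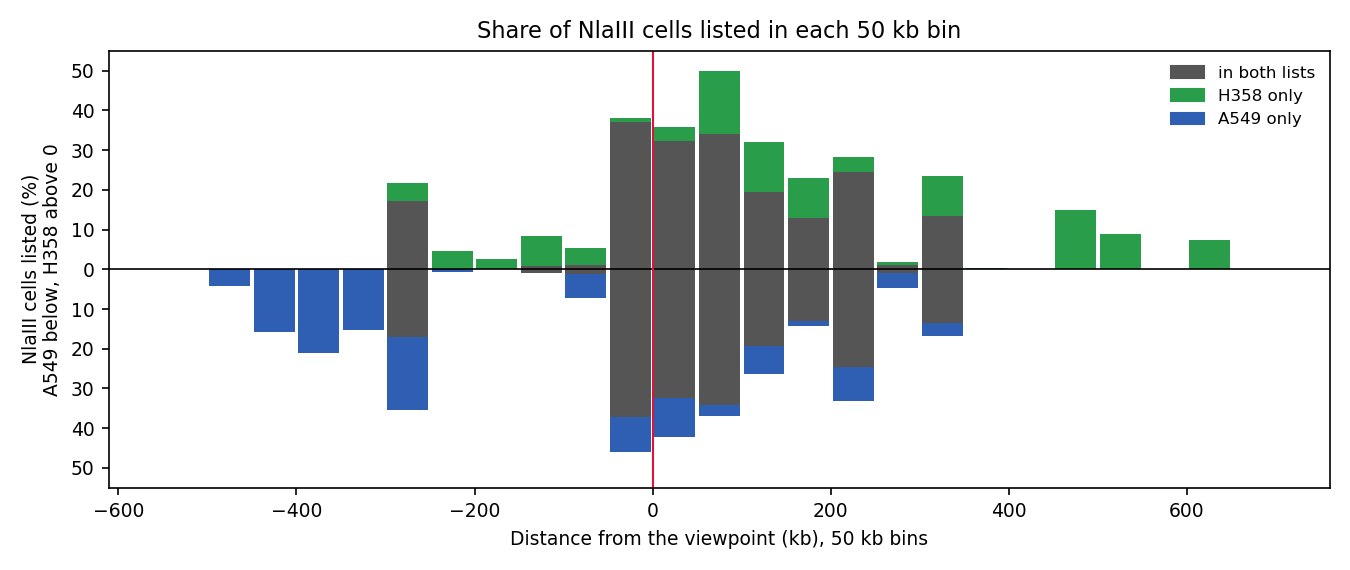
Percentage of the NlaIII cells that were listed, in bins of 50 kb by distance from the viewpoint (red line), with H358 above and A549 below the zero line. Grey bars are cells in both lists, green H358 only and blue A549 only. The grey parts are largest from -50 to 100 kb, and the outermost bins hold cells of 1 line.

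PDE10A, which encodes a phosphodiesterase that breaks down cyclic nucleotides, held 178 of the 304 A549-only pCREs (58.6%) and 24 of the 274 H358-only pCREs (8.76%). Of its 3161 cells, 6.96% were listed in A549 and 2.09% in H358. Only 42 pCREs were in both lists, or 17.2% (13.0 to 22.4) of the pCREs of either line in this gene. All of these pCREs lay upstream of the canonical PDE10A transcript, in the span of longer annotated transcripts. Within the common range of distances, PDE10A held 19.2% of the A549-only and 12.9% of the H358-only pCREs. In the interval from PDE10A to TBXT, 77 pCREs were in both lists, 36 in H358 only and 23 in A549 only.

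TBXT itself held 3 pCREs in H358 and 14 in A549, out of 32 cells, of which 22 lay outside the 5 kb around the viewpoint that the authors removed. The 3 H358 pCREs were all also in A549, with 2 centred in exon 8 and 1 in intron 7 of the canonical transcript. The 11 A549-only pCREs were centred in intron 7 (8), exon 7 (2) and intron 6 (1). One of the pCREs in exon 8, at chr6:166158333-166158596, and both in exon 7 had their centre in coding sequence. The nearest pCRE on the PDE10A side was therefore at -10.5 kb in H358 (chr6:166158597-166158919, intron 7) and at -8.23 kb in A549 (chr6:166160939-166161012, intron 6). These 3 pCREs of exon 7 and intron 6 are adjacent cells:
TBXT exon 7, A549 only, chr6:166160901-166160927: caaggctggaccaattgtCATGggatt
TBXT exon 7, A549 only, chr6:166160928-166160938: gcagCATGgat
TBXT intron 6, A549 only, chr6:166160939-166161012: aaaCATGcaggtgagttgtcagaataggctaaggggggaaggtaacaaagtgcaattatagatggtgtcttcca

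On the other side, both lists began with the same pCRE at chr6:166177110-166177339, 8.01 kb from the viewpoint. The interval from TBXT to PRR18 held 203 pCREs in both lists, 51 in H358 only and 49 in A549 only, so that 67.0% (61.5 to 72.0) were in common. Of its 684 cells, 37.1% were listed in H358 and 36.8% in A549. This interval therefore held nearly the same number of pCREs in each line, 254 and 252.

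The lines differed from PRR18 to SFT2D1. PRR18, a short gene for a proline-rich protein, had 5 cells, all listed in H358 and 3 of them in A549. One of these 3, at chr6:166307541-166308497, was centred in the coding part of exon 1. Between PRR18 and SFT2D1, 26 of 50 cells were listed in H358 (52.0%) and 2 in A549 (4.00%), both of these also in H358. In SFT2D1, which encodes a membrane protein of vesicle transport, 53 of 99 cells were listed in H358 and 33 in A549, with 30 in common. Of the 23 H358-only pCREs there, 20 were in intron 1 and 3 in intron 5, where the 3 A549-only pCREs also lay. The 14 pCREs of intron 1 that were in both lists and the 20 of H358 only together made intron 1 the part of SFT2D1 with most pCREs. One pCRE in both lists, at chr6:166328150-166328443, was centred in coding sequence of exon 4. Neither line had a pCRE among the 116 cells from SFT2D1 to MPC1.

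MPC1, which encodes a subunit of the mitochondrial pyruvate carrier, was the only protein-coding gene with pCREs that showed no difference between the lists. It had 28 of 64 cells listed in each line (43.8%), the same 28, all in intron 1. They belonged to a run at chr6:166374557-166388879 that continued past the start of the gene, with 61 pCREs over 14323 bp, 205 to 219.7 kb from the viewpoint. It was the longest run of pCREs in both lists, and with 9 further H358-only pCREs it formed the largest joined region of H358, at chr6:166374557-166390781. From MPC1 to RPS6KA2 there were 33 pCREs in both lists, 9 in H358 only and 15 in A549 only.

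RPS6KA2, which encodes a kinase of the ribosomal S6 kinase family downstream of MAP kinases, held 105 of the H358-only pCREs (38.3%) and 25 of the A549-only pCREs (8.22%). Of its 2495 cells, 5.57% were listed in H358 and 2.36% in A549, with 34 pCREs in both lists. Of the 105 H358-only pCREs, 79 lay upstream of the canonical transcript, which starts 458 kb from the viewpoint. The other 26 were in introns 3, 6, 7, 8, 10 and 11 and in exon 8, where 2 pCREs at chr6:166498494-166498544 and chr6:166498545-166498617 were centred in coding sequence. The A549-only pCREs were in introns 8, 10, 11, 17, 18 and 19. Introns 17 to 19, the nearest to TBXT of the introns with pCREs, held 11 pCREs in A549 and none in H358. Within the common range of distances, RPS6KA2 held 9.14% of the H358-only and 16.0% of the A549-only pCREs, the reverse of the order over the whole lists.

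**Figure D3:**
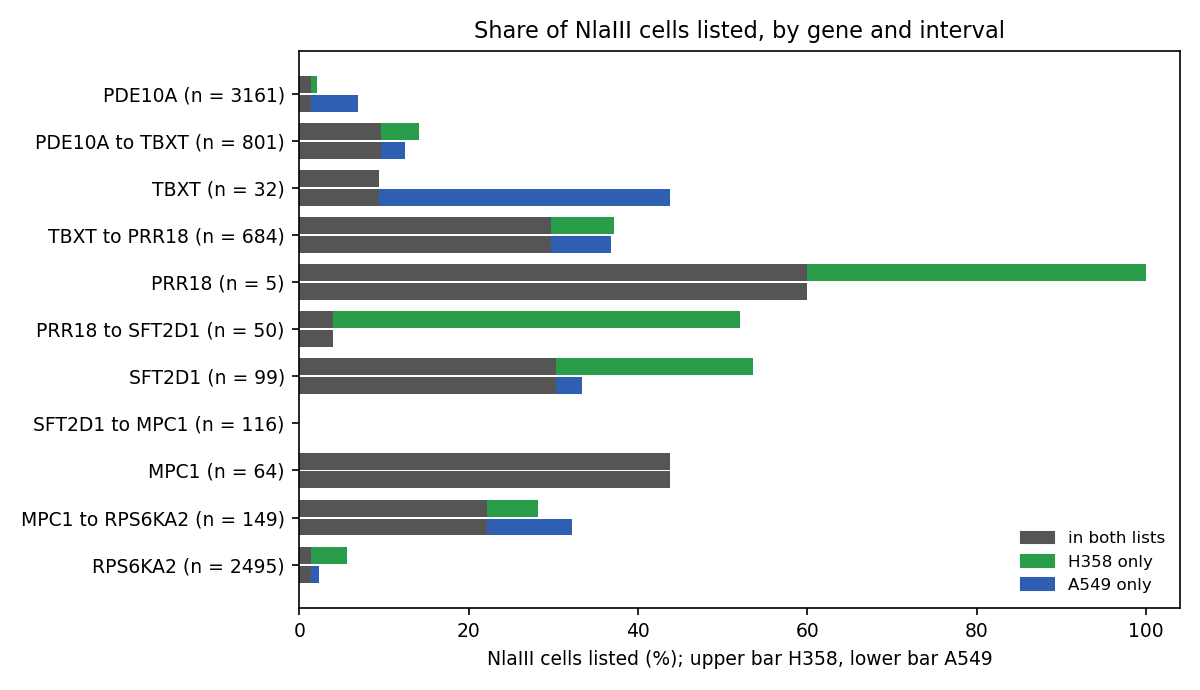
Percentage of the NlaIII cells of each protein-coding gene and each interval between genes that were listed, in the order of the chromosome, with n the number of cells. The upper bar of each pair is H358 and the lower bar A549. MPC1 has the same cells in both lines (43.8%), whereas TBXT has 9.38% in H358 and 43.8% in A549. The TBXT shares are of all its 32 cells, of which only the 22 beyond 5 kb from the viewpoint could be listed, so that they are not comparable with those of MPC1.

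The other protein-coding genes of the window, C6orf118, RAMACL, RNASET2, CEP43, CCR6, GPR31, ENSG00000249141 and ENSG00000272980, held no pCRE of either line.

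Long non-coding RNA genes differed in the same places. Over all cells of the window, 2.80% were H358 only, 3.11% A549 only and 4.65% in both lists. ENSG00000236627, inside PDE10A on the opposite strand at chr6:165754189-165775780, held 23 A549-only pCREs among its 77 cells and none of H358. ENSG00000287189, between PRR18 and SFT2D1 at chr6:166309504-166317547, held 21 H358-only pCREs among its 37 cells and none of A549. ENSG00000231297, between PDE10A and TBXT, held 3 in both lists, 11 in H358 only and 16 in A549 only, of 61 cells. ENSG00000233365, between TBXT and PRR18, held 31 in both lists, 2 in H358 only and 6 in A549 only, of 75 cells. Each of the remaining genes, ENSG00000280850, MPC1-DT and RPS6KA2-IT1, held at most 4 pCREs.

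Promoters, taken as the 1000 bp before and the first 100 bp after any annotated start, held 20 of the 455 pCREs in both lists (4.40%), 3 in H358 only (1.09%) and 10 in A549 only (3.29%). Over all cells of the window the share was 3.45%, so that the pCREs in both lists and in A549 only were near the background. SFT2D1 promoters had 9 pCREs in both lists and 3 in A549 only, all at annotated starts inside the gene. The 9 were at the starts chr6:166328339 and chr6:166331407, and the 3 at chr6:166324688. None was at the canonical SFT2D1 start, chr6:166342545. Promoters of ENSG00000233365 had 5 in both lists, MPC1-DT 3 and MPC1 2, where a pCRE can be at the promoters of several genes. The 3 H358-only pCREs were all at the divergent PRR18 and ENSG00000287189 promoters, which had 2 more in both lists. Of the 10 A549-only pCREs, 6 were at the promoter of ENSG00000236627, where they took all 6 cells, and 1 was at RPS6KA2-IT1. By this rule, no pCRE of either line was at any of the 65 promoter cells of PDE10A or the 48 of RPS6KA2. None was at the 3 of TBXT, but the outermost and canonical TBXT starts lay only 510 and 1359 bp from the viewpoint. The authors removed fragments within 5 kb of the viewpoint, so that none could be listed at these starts. The study annotated its regions with HOMER instead. Among those of H358 or A549 that H460 lacked, it reports 1 less than 1000 bp upstream of the RPS6KA2 start.

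The pCREs lay in runs, here called stretches, in which each pCRE was at most 40 bp from the next of its class. There were 41 stretches in both lists, 47 in H358 only and 52 in A549 only. The 5 longest held 43.3%, 34.7% and 36.5% of the pCREs of their class. After the one at MPC1, the longest in both lists were at chr6:166232686-166243280 (43 pCREs, between TBXT and PRR18), chr6:166177110-166183236 (37, same interval), chr6:166325911-166334082 (29, SFT2D1) and chr6:166141811-166147646 (27, between PDE10A and TBXT). The farthest of these 5 from the viewpoint was the one at MPC1.

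The longest H358-only stretch, at chr6:166639287-166644721, had 23 pCREs upstream of the canonical RPS6KA2 transcript, 139.7 kb from the nearest A549 pCRE. The next had 22 pCREs between PRR18 and SFT2D1 (chr6:166309272-166315181), 18 between TBXT and PRR18 (chr6:166221406-166226021), 18 in SFT2D1 intron 1 (chr6:166334083-166336856) and 14 in RPS6KA2 (chr6:166799700-166802113). The stretch in SFT2D1 intron 1 began at the base after the end of the SFT2D1 stretch that both lines had. It was thus an extension of a joint region in H358, and the stretches at 52.2 kb and between PRR18 and SFT2D1 also touched a pCRE in both lists at 1 end.

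All 5 of the longest A549-only stretches, ranked by number of pCREs and then by length in bp, were in PDE10A. The longest, at chr6:165811203-165823580, had 42 pCREs over 12378 bp, and 58.6 kb separated it from the nearest H358 pCRE. The others had 20 (chr6:165751987-165756311), 17 (chr6:165877784-165882203), 17 (chr6:165887741-165891392) and 15 pCREs (chr6:165757739-165762856). Another stretch of 15 pCREs, at chr6:166401979-166404068 between MPC1 and RPS6KA2, tied in number with the last of these but was shorter in bp. Both stretches of 17 touched a pCRE in both lists at 1 end, and the first of them ended at the base before the outermost H358 pCRE on that side.

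**Figure D4:**
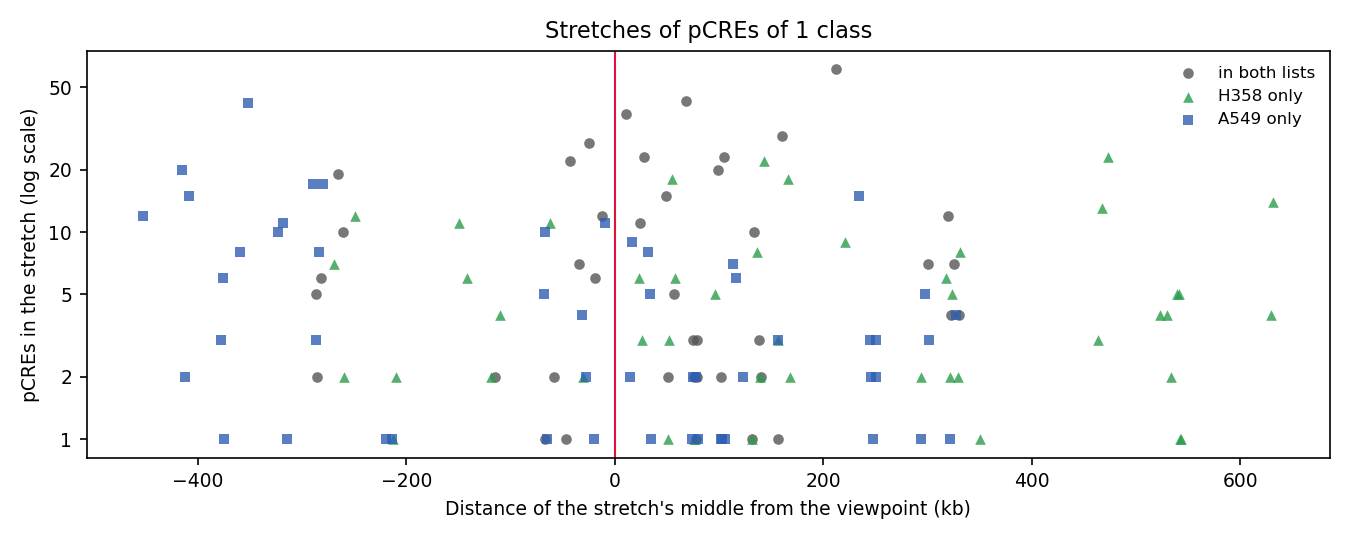
Number of pCREs in each stretch (log scale) against the distance of its middle from the viewpoint in kb, for the 41 stretches in both lists (grey circles), 47 in H358 only (green triangles) and 52 in A549 only (blue squares). The A549-only stretches of 15 or more pCREs lie towards PDE10A apart from one at 234 kb, and those farthest to the right are H358 only.

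Part of each line's own pCREs extended regions that both lines had. Of the 274 H358-only pCREs, 108 were in stretches that touched a pCRE in both lists at 1 end, 23 in stretches that touched at both ends and 143 (52.2%) in stretches that touched none. For A549 only the numbers were 94, 14 and 196 (64.5%). The median gap to the nearest pCRE of the other line was 2.69 kb for H358 only and 12.0 kb for A549 only. More than 10 kb separated 107 H358-only (39.1%) and 160 A549-only pCREs (52.6%) from the other line.

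When all pCREs of a line no more than 40 bp apart were joined, H358 had 60 regions and A549 had 66. Of these, 26 in H358 and 29 in A549 overlapped no region of the other line. There were 21 pairs that overlapped each other and nothing else. In these pairs the boundary at the lower coordinate was the same base in 14, the upper boundary in 7 and both in 5. The median difference of the upper boundary was 269 bp and the largest difference of any boundary 4616 bp. A549 had the longer region in 10 pairs and H358 in 6. The first region on the RPS6KA2 side, for example, ran from 7.90 to 14.0 kb in H358 and from 7.90 to 14.3 kb in A549.

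The 3 classes resembled each other in sequence. The median length of a pCRE was 189 bp in both lists, 205.5 bp in H358 only and 184 bp in A549 only, against 158 bp for the cells of the common range that were in neither list. Together G and C made up 44.8%, 45.0% and 44.6% of the bases, against 43.8%. A DpnII site (GATC), the site of the second digestion, was present in 39.3%, 39.4% and 37.8%, against 33.4%.

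Motifs were searched on both strands. The shares count pCREs with a match and were not adjusted for length, which had a median of 163 bp over all cells of the window. The AP-1 site (TGANTCA) was in 6.37% of the pCREs in both lists, 3.28% (1.74 to 6.12) of H358 only and 7.24% (4.83 to 10.7) of A549 only, against 6.36% of all cells of the window. A forkhead site (TGTTTAC) was in 3.74%, 3.28% and 3.29%, against 3.55%. Matches per kb were 0.305, 0.191 and 0.375 for the AP-1 site, against 0.337 over all cells. For the forkhead site they were 0.191, 0.143 and 0.139, against 0.178. CTCF is the architectural factor that binds at many loop ends. Its core motif was searched as a strict pattern, so that sites departing from this pattern were not counted. The matches therefore do not show how many CTCF sites the pCREs or the window hold. The pattern matched at 7 sites in all cells and at 1 in a pCRE, which was A549 only and lay in PDE10A. It is shown with its flanks, the motif in capitals, on the minus strand:
CTCF core, A549 only, chr6:165850605-165850656: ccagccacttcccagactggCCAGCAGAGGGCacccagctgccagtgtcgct

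The T-box half-site AGGTGTGA, the sequence that Brachyury binds, was in 12 pCREs in both lists (2.64%, 1.51 to 4.55), 4 in H358 only (1.46%) and 3 in A549 only (0.987%), against 1.53% of all cells. Per kb there were 0.114, 0.0636 and 0.0417 matches, against 0.0770. Of the 7 matches in 1 line, 3 are shown with their flanks, each on the strand of the match and with the half-site in capitals:
H358 only, chr6:166708998-166709045 (plus): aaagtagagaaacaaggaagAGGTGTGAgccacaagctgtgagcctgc
A549 only, chr6:165822059-165822106 (minus): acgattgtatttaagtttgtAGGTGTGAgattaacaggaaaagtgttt
A549 only, chr6:166137729-166137776 (minus): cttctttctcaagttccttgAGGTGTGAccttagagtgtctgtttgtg

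H460, the line of the series that expresses TBXT, had 760 pCREs, or 7.77% of the cells of the window. It had 400 of the 455 pCREs that were in both lists (87.9%), 102 of the H358-only (37.2%) and 90 of the A549-only pCREs (29.6%). The H460 list held all 28 of MPC1, none in TBXT, 47 of the 178 A549-only pCREs in PDE10A and 2 of the 105 H358-only pCREs in RPS6KA2. Of the H358-only pCREs it held 42 of 51 between TBXT and PRR18, 15 of 24 between PRR18 and SFT2D1 and 20 of 23 in SFT2D1. Of the A549-only pCREs it held 14 of 15 from MPC1 to RPS6KA2 and 13 of 49 between TBXT and PRR18. From the 5 longest H358-only stretches, in the order above, it had 0, 13, 16, 18 and 0 pCREs. From those of A549 only it had 19, 0, 0, 8 and 0.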

How the data were processed

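The authors trimmed the reads, aligned them with Bowtie 1.2.2 against the NlaIII and DpnII fragments of hg38 and removed short fragments and those within 5 kb of the viewpoint. They took a running mean over neighbouring fragments, called fragments with peakC and a local coverage score, and kept those called in both replicates. The running mean spreads a call over neighbours, and the call in both replicates hides near misses. The sample records and the methods differ in fixative concentration and annealing temperature. What the authors deposited was neither counts nor scores but other values, the start and end position of each region. 1 header line was dropped from the H358 list and 1 from the A549 list. Starts were converted to count from 1, and distances were taken from the midpoint.

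The NlaIII map was rebuilt from hg38, with sites up to 5 bp apart sharing a cell, and genes were taken from GENCODE 44. A pCRE was assigned to a gene by its midpoint, over the span of all annotated transcripts. Named were all protein-coding genes of the window, lncRNA genes with a pCRE, the 5 longest stretches per class, the nearest and farthest pCREs, and those at promoters or in coding exons. The members, lists and rules were chosen with earlier results of these data known. The matching was tested on simulated data. For the rebuilt map, the simulation checked only that neighbouring cells adjoin, which holds by construction. Python 3.11.15, numpy 2.4.6, scipy 1.17.1 and matplotlib 3.10.9 were used. Alternatives were other units, matching rules, distances, filters and gene spans. The sequences of some pCREs are not reported here.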

Additional observations from a re-analysis of the deposited data

How the results depend on the processing

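Of 77 alternative values for 12 results, 52 stayed within the interval of the value reported and 25 fell outside it. Those outside came with joined regions (11), the common range of distances (11) and the canonical transcripts (3). For median distances, the interval used was a confidence interval of the median, not the wider interquartile range printed above. It was 71.5 to 102.8 kb for both lists, 165.6 to 249.1 kb for H358 only and 283.6 to 316.6 kb for A549 only. No value fell outside when short or isolated pCREs were left out, with other reference points for distance, in base pairs, or when any base inside a gene counted. The 12 values with any base in common counted as a match were also among the 52. They could not differ from the values reported, because all pCREs are whole cells of 1 map. With joined regions, 35.3% of the regions of either line were common to both, 56.7% of those of H358 and 56.1% of those of A549. The share on the RPS6KA2 side was then 61.5% for H358 only and 48.3% for A549 only, the median distances 322 kb and 251 kb, the share inside PDE10A 15.4% and 48.3%, and inside RPS6KA2 53.8% and 24.1%. Within the common range, 57.1% of the pCREs of either line, 71.0% of H358 and 74.5% of A549 were in both lists. The share on the RPS6KA2 side was 67.7% for H358 only and 59.0% for A549 only, the medians 143 kb and 116 kb, the share inside PDE10A 12.9% and 19.2%, and inside RPS6KA2 9.14% and 16.0%. In the canonical transcripts the share inside PDE10A was 0% for H358 only and 0% for A549 only, and that of H358 only inside RPS6KA2 was 9.49%. The common range leaves out the outer pCREs by construction, and the canonical transcripts are shorter than the genes. No paired analysis was possible because each line has 1 pooled list and no value per replicate, and for the same reason no replicate could be left out. The depth is unknown, so that a pCRE missing from a list was not shown to be without contact.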
